A study of Mus musculus with 18 samples.

Results

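Mature miRNAs of mouse embryonic stem cells (ESCs) with the stage code P2 were compared with those of day 5 outgrowths of the inner cell mass (ICM). The ICM is the part of the blastocyst from which the embryo proper and ESC lines arise. The comparison holds 4 of the 18 small-RNA libraries of the series, 2 of day 5 outgrowths and 2 of ESC P2, chosen by the column codes of the deposited table. All 1390 miRNA entries of that table were considered. Of these, 1079 were above 0 in any of the 4 libraries, and 508 were tested because they had at least 10 normalized counts in at least 2 of the 4.

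Mice were of the NMRI strain, and ICMs were isolated by immunosurgery. Outgrowths and ESCs alike grew on gelatin in N2B27 medium with leukemia inhibitory factor and the R2i inhibitors, 1 μM PD0325901, which blocks MEK, and 10 μM SB431542, which blocks type I receptors of activin and TGF-beta. Day 5 outgrowths had spent 5 days in this medium. The ESC libraries coded P2 in column and description are titled passage 4, so P2 serves only as a code and says nothing here about passage order. ESC P4 and ESC P15, 2 libraries each and titled passages 15 and 2, helped to estimate the spread between replicates and served as a second comparison. Nothing in the labels says whether replicates were separate cultures, so p-values measure only the spread between these libraries, which may be technical. Nor do the labels say whether these ESCs grew from these outgrowths or how many embryos were pooled.

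A miRNA is cut from a hairpin precursor, and either arm of the hairpin, 5p or 3p, can be loaded into an Argonaute protein. Bases 2 to 8, the seed, pair with target mRNAs, so that miRNAs of 1 seed can bind the same sites. In mouse ESCs the miR-290-295 cluster, whose main 3p members carry the seed AAGUGCU, is known to speed the passage from G1 to S phase. The let-7 family is known instead to accumulate as cells differentiate.

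The sequences on which the results turn are shown 5′ to 3′ from RefSeq on GRCm38.p6, which matched 1166 of the 1390 entries and 408 of the 508 tested. Capitals mark the seed. The first set holds 3 members of each of the 2 seed families, those of miR-351 and of miR-92a, in which the most normalized counts were lost, with the 5p arm of miR-25 for the comparison of its arms:
miR-351-5p: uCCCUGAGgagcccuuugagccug
miR-125a-5p: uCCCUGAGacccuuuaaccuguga
miR-125b-5p: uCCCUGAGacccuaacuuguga
miR-92a-3p: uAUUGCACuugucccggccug
miR-92b-3p: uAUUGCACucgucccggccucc
miR-25-3p: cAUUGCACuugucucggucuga
miR-25-5p: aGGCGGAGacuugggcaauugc
The next set shows the shared seed AAGUGCU of the ESC clusters, and then 5p arms of the miR-290-295 cluster with their own related seeds:
miR-295-3p: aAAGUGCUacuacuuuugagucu
miR-294-3p: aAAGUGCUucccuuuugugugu
miR-291a-3p: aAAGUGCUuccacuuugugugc
miR-302d-3p: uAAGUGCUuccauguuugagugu
miR-293-5p: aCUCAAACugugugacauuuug
miR-290a-5p: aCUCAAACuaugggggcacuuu
miR-294-5p: aCUCAAAAuggaggcccuaucu
The last set holds miR-210-3p, which had the largest rise among miRNAs averaging 100 or more, together with its opposite arm, 3 members of the Dlk1-Dio3 cluster, the miR-465 5p arms of 1 seed, and the pair of entries read from opposite strands of 1 locus:
miR-210-3p: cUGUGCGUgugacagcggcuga
miR-210-5p: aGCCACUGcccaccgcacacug
miR-410-3p: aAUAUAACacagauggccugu
miR-381-3p: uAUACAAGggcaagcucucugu
miR-541-5p: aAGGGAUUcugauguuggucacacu
miR-465a-5p: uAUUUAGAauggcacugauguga
miR-465b-5p: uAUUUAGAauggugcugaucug
miR-465c-5p: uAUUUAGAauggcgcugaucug
miR-219a-5p: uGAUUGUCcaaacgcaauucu
miR-219b-3p: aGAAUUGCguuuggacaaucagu

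Normalized counts summed to 696629 and 783325 in the day 5 libraries and to 781162 and 814289 in ESC P2. Between 726 and 928 entries were above 0 in each of the 4. The lowest listed value was 1 in each, against 9 to 27 in the 10 libraries of earlier stages. If a listed 1 stands for at least 1 read, 1 read was worth at most 1.5 normalized counts, and counting error alone was at most 12.2% for a value of 100 and 38.7% for a value of 10. On the log2 scale, Pearson's r across entries was 0.956 between the day 5 replicates and 0.990 between those of ESC P2. Their differences exceeded sampling noise, with a chi-square per miRNA of at least 76.8 and 17.8, so each library was counted separately.

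The question was which miRNAs differ between an outgrowth at its last sampled day and this ESC stage. The balance shifted from miR-92a-3p, a product of the proliferation-linked miR-17-92 cluster, to miR-182-5p, a miRNA also known from sensory cells. miRNAs of the imprinted Dlk1-Dio3 region, most members of the miR-290-295 cluster, miR-210-3p and the miR-34 family rose. The miR-351 and miR-125 seed family, miR-92a-3p, miR-423-5p and miR-375-3p fell. The calls of miR-92a-3p, miR-182-5p, miR-210-3p and the miR-34 family were each lost under some alternative scaling, correction or spread given below. Other rises were weakened. With the spread taken from all 18 libraries, 17 Dlk1-Dio3 entries were higher in place of 48. After a correction for GC content 5 of 12 miR-290-295 members were higher, miR-294-5p, listed at 0 in day 5, among them. By limma on log2(normalized count + 1), with Benjamini-Hochberg adjustment at 0.05 over the 508 tested, 182 miRNAs (35.8%) were higher in ESC P2 and 143 (28.1%) were lower, 64% in all. The median log2 change of all tested was 0.19. A change of at least 2 on the log2 scale was called for 25 that rose and 63 that fell. Both ESC P2 libraries were above both of day 5 for 244 of the 508 (48%) and below them for 192 (37.8%).

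These shares are the background against which counts of any group are to be read. The count depends on how the spread is estimated: with the spread taken from all 18 libraries, 75 were higher (14.8%) and 71 lower (14%), 28.7% in all, 145 of these 146 being among the 325 above. Of the tested miRNAs, 24 had below 10 in both day 5 libraries and 50 below 10 in both ESC P2 libraries. Having passed the minimum through 1 group, they had to differ, and 20 and 41 of them were called. Rescaling the libraries to the same total moved the median log2 change of all tested by -0.11, so changes of this size are within the scaling.

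**Figure D1:**
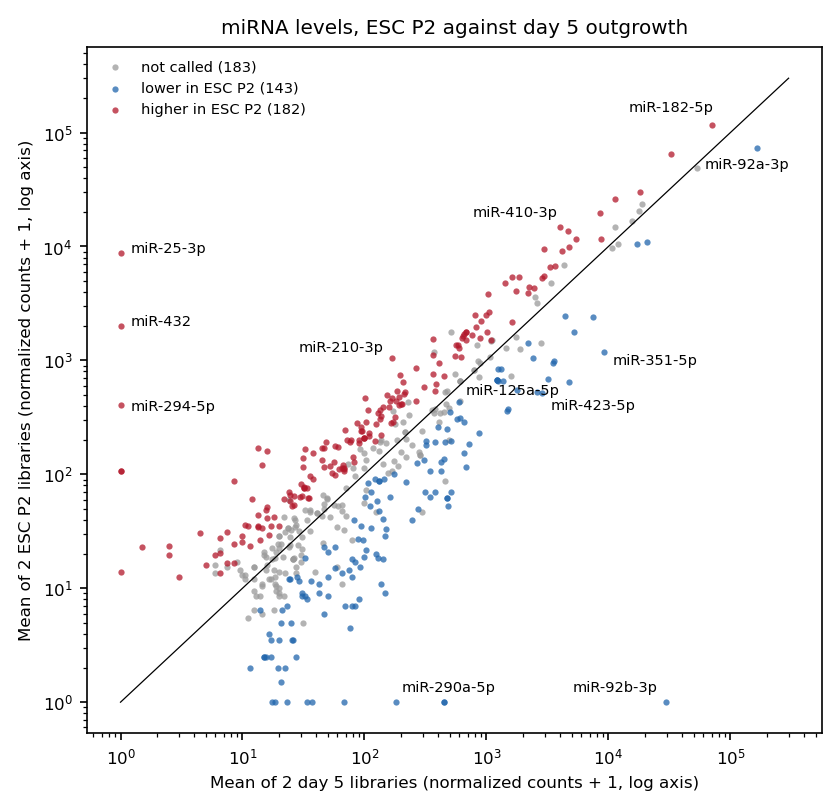
Each point is 1 of the 508 tested miRNAs, placed by its mean in the 2 day 5 libraries (x) and the 2 ESC P2 libraries (y), both as normalized counts plus 1 on log axes. Red points (182) were higher and blue points (143) lower in ESC P2 at an adjusted p below 0.05 by limma; points at the left and lower edges are entries listed at 0 in both libraries of a group, among them miR-25-3p and miR-92b-3p.

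The size of the change moved with the base composition of the miRNA, which touches most results below. Across the 408 tested miRNAs with a matched sequence, the log2 change from day 5 to ESC P2 had a Spearman rho of -0.49 and a Pearson r of -0.35 with the GC content of the mature miRNA. In each pair of 1 ESC P2 and 1 day 5 library rho lay between -0.44 and -0.50, and it was -0.43 over the 201 miRNAs with a mean of at least 100. Replicates did not show it: rho was 0.01 between the day 5 libraries and -0.01 between the ESC P2 libraries. The miRNAs of 1 library share its preparation, so these are descriptions across miRNAs and not tests.

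Among the 64 miRNAs with at most 40% GC the median log2 change was 1.17, with 42 higher and 4 lower. Among the 80 with more than 60% GC it was -1.27, with 6 higher and 49 lower. The relation was present against the other ESC groups also, with a rho of -0.39 for ESC P2 minus ESC P4 and -0.35 for ESC P2 minus ESC P15, whereas day 5 set against ESC P4 and ESC P15 gave -0.06 and -0.02. GC content thus moved with ESC P2 relative to each of the 3 groups. Length did not, with a rho of 0.01. The part of GC content in any change was not tested. Most lists and most of the named miRNAs with a matched sequence are therefore also given after a straight-line correction for GC content in each library, chosen after seeing the data. Sums over seed families were not corrected. The correction left 96 of the 408 higher and 98 lower, where 141 and 118 were called before it, and 80 and 83 were called both ways.

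**Figure D2:**
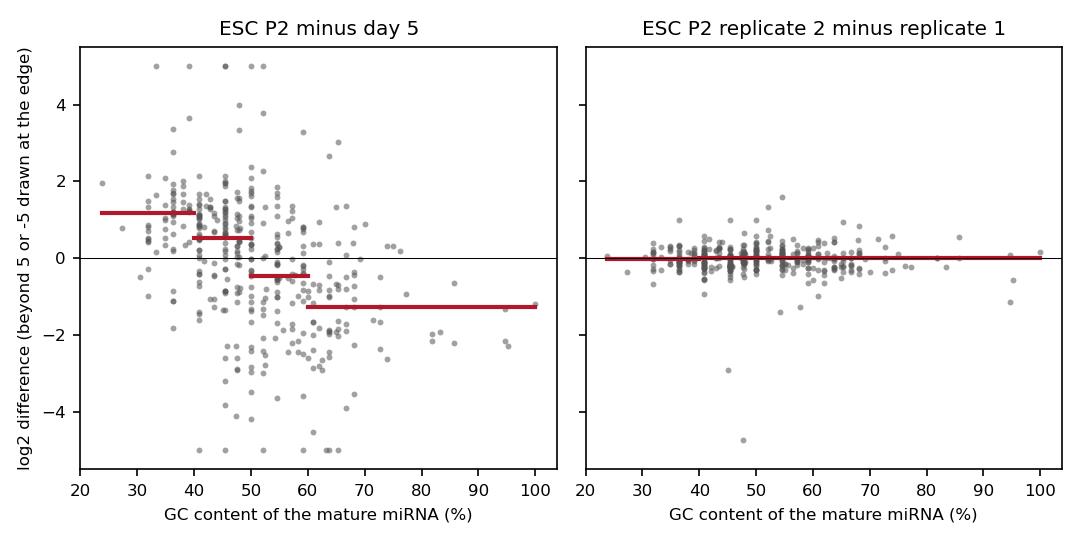
Log2 difference (y) against the GC content of the mature miRNA in percent (x) for the 408 tested miRNAs with a matched sequence, for ESC P2 minus day 5 (left) and between the 2 ESC P2 replicates (right). Red bars are medians of the bins up to 40%, 40% to 50%, 50% to 60% and above 60% GC; on the left they step down from 1.17 to -1.27 and on the right they lie near 0.

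Among miRNAs averaging 100 or more in the 4 libraries and not listed at 0 throughout a group, the largest rise was that of miR-210-3p, a miRNA known to be induced by hypoxia through HIF. Its locus lies on chromosome 7, chr7:141221407-141221428 on the minus strand of GRCm38. The day 5 libraries held 205 and 132 normalized counts and the ESC P2 libraries 1123 and 961. Both ESC P2 libraries were several times above both of day 5, a log2 change of 2.65 (SE 0.23, limma adjusted p = 0.00027) and of 3.48 after the GC correction. With the spread from all 18 libraries its adjusted p was 0.38. Its level also differed between ESC groups, at 258 and 307 in ESC P4 but 1385 and 1545 in ESC P15.

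The 5p arm of the same hairpin did not follow. miR-210-5p held 121 and 101 normalized counts in day 5 and 57 and 47 in ESC P2. The 5p share of both arms was therefore 37.1% and 43.3% in day 5 and 4.83% and 4.66% in ESC P2. Its own log2 change of -1.08 was 0.04 after the GC correction. The log2 ratio of 5p to 3p fell by 3.73 (limma adjusted p = 2.23e-05), and by 3.44 after the GC correction. In ESC P4 the 5p arm was at 155 and 163 and in ESC P15 at 693 and 592, beside the 3p values given above. The low 5p share was thus that of ESC P2 and not of all ESC groups.

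Of the 12 largest rises, 6 came from the Dlk1-Dio3 region on chromosome 12, an imprinted locus whose miRNAs are expressed from the maternal allele, with Meg3 and Mirg as noncoding host transcripts. miR-410-3p, in an exon of Mirg at chr12:109743764-109743784, held 4111 and 3906 in day 5 and 14951 and 14742 in ESC P2. The replicates nearly coincided and the groups lay far apart, with a log2 change of 1.89 (SE 0.13, limma adjusted p = 0.000123) and 1.08 after the GC correction. miR-381-3p went from 1288 and 755 to 4262 and 3389, a log2 change of 1.95 and 1.61 after the correction. miR-411-3p, miR-329-5p and miR-299a-3p rose by 1.95, 1.87 and 1.82, and by 1.61, 1.53 and 1.77 after the correction. The sixth, miR-369-3p, has 23.8% GC, the lowest of the 12, and its change of 1.96 shrank to 0.24 with a limma adjusted p of 0.575. With the spread from all 18 libraries 7 of the 12 largest rises lost the call (limma adjusted p from 0.223 to 0.649), namely miR-210-3p, miR-34c-5p, miR-31-5p and, from this region, miR-369-3p, miR-411-3p, miR-329-5p and miR-299a-3p.

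Over the whole Dlk1-Dio3 list, 82 of 104 entries were tested. Of these, 48 rose and 8 fell, with a median log2 change of 1.11 beside 0.19 over all tested. Their share of all normalized counts was 11.8% and 11.4% in day 5 and 20.5% and 21.4% in ESC P2. After the GC correction 33 of the 79 with a sequence were higher and 1 lower, at a median of 0.77. With the spread from all 18 libraries 17 were higher and 4 lower. By stretch of the region, 33 of 54 tested in the stretch around Mirg (chr12:109709065-109747949) and 12 of 21 in the stretch that begins at Meg3 (chr12:109563710-109595387) were higher, with 4 and 3 lower. In the short stretch between them (chr12:109611521-109618326) 1 of 4 was higher and none lower, at a median of 0.24.

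The most abundant member of the region was miR-541-5p, at 26339 and 39050 in day 5 and 55207 and 73215 in ESC P2. Both ESC P2 libraries were above both of day 5, with a log2 change of 0.99 (limma adjusted p = 0.0337) that was 0.56 and not called after the GC correction (limma adjusted p = 0.199). Among members that fell was miR-485-5p, by 1.37, with no matched sequence and so no corrected value, and among those not called was miR-127-3p, an abundant member that acts against its antisense partner Rtl1, at 3674 and 4971 against 6221 and 7418 (limma adjusted p = 0.173). miR-127-3p was called after the GC correction, with a change of 1.20 (limma adjusted p = 0.0371). Levels also differed between the ESC groups. miR-410-3p was at 12165 and 11806 in ESC P4 but at 1384 and 1608 in ESC P15, and miR-381-3p at 2575 and 3311 against 225 and 260. For these 2 miRNAs ESC P2 was nearer to ESC P4 than to ESC P15 and many times above the latter. miR-541-5p was at 170331 and 97066 in ESC P4 and at 9725 and 9683 in ESC P15, so that ESC P2 lay between them.

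**Figure D3:**
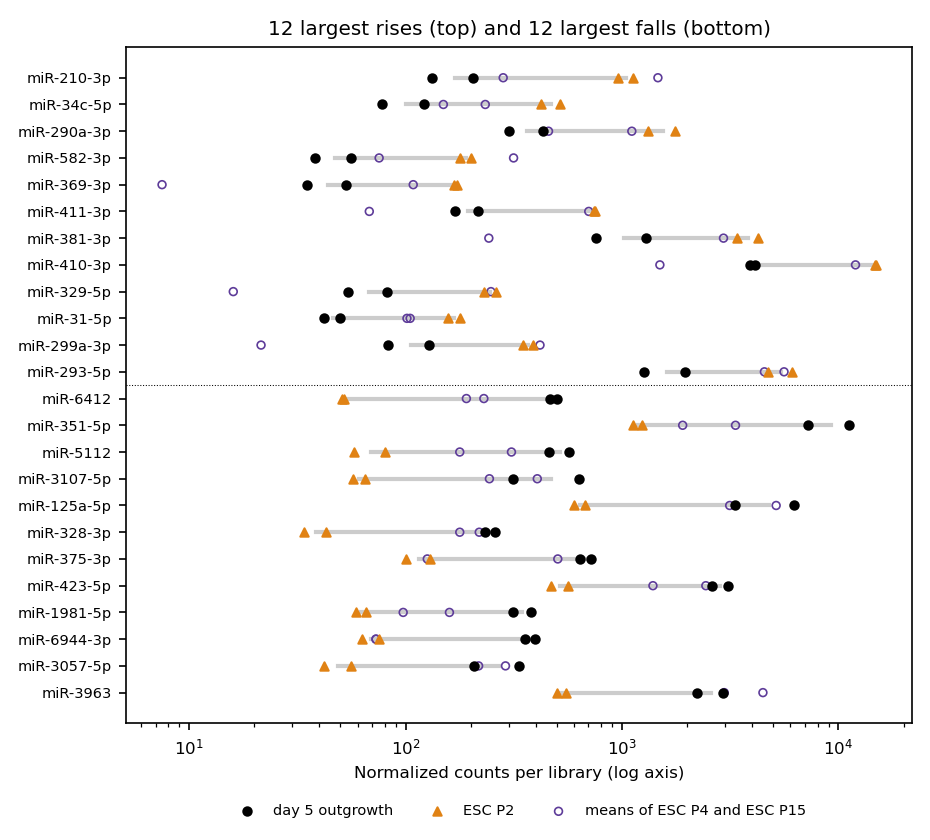
Normalized counts (x, log axis) of the 12 miRNAs with the largest rise (above the dotted line) and the 12 with the largest fall (below it) in each day 5 library (black dots) and each ESC P2 library (orange triangles), with the means of ESC P4 and of ESC P15 as open circles; grey bars join the group means. The 2 libraries of each group lie on 1 side of the other group for all 24 because the rule of choice required it. For Dlk1-Dio3 members such as miR-410-3p an open circle, that of ESC P15, lies far to the left.

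The miR-290-295 cluster on chromosome 7 (chr7:3218639-3220837), the dominant miRNA cluster of mouse ESCs, was abundant in both groups, so the defining miRNAs of pluripotent cells were present under either label. It made up 11.1% and 7.91% of all normalized counts in day 5 and 14.9% and 13.1% in ESC P2. Of 14 tested members 9 rose and 2 fell, with a median log2 change of 0.97. These counts include entries listed at 0 throughout a group, miR-294-5p among the rises and miR-290a-5p among the falls. Without them the median was also 0.97. After the GC correction 5 of the 12 with a sequence were higher and 1 was lower, at a median of 0.66. miR-294-5p was among these 5, and the 1 lower was miR-290a-5p. In bulk libraries, fewer cells of a type and less of an RNA per cell cannot be told apart.

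Members differed in the size and direction of the change. miR-290a-3p went from 430 and 299 in day 5 to 1760 and 1324 in ESC P2, a log2 change of 2.09 (limma adjusted p = 0.000479) and of 2.04 after the GC correction. miR-293-5p went from 1957 and 1263 to 6095 and 4717, a change of 1.77 and of 0.85 after the correction. miR-293-3p and miR-295-5p rose by 1.69 and 1.03, and by 1.64 and 0.99 after it. For miR-295-3p, the most abundant 3p member, values were 20543 and 15645 in day 5 and 31835 and 28559 in ESC P2. This change of 0.75 (limma adjusted p = 0.0147) was -0.27 after the correction, its GC content being 34.8%. Other abundant 5p arms had smaller changes. miR-292-5p changed by 0.32 (limma adjusted p = 0.177), miR-291a-5p by -0.18, and miR-291b-5p fell by 0.64, a fall not called after the correction (-0.10, limma adjusted p = 0.513).

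The seed AAGUGCU, summed over miR-295-3p, miR-294-3p, miR-291a-3p, miR-302d-3p and miR-302b-3p, reached 26338 and 19851 in day 5 and 42075 and 37218 in ESC P2, a log2 change of 0.79 (limma adjusted p = 0.00504). The related seed AAAGUGC of the miR-17 family, whose members act on cell cycle inhibitors, changed by 0.82, from 6284 and 4821 to 9605 and 9776. Both families were higher in each ESC P2 library than in each of day 5. miR-295-3p makes up most of the first sum, and its own change was -0.27 after the GC correction, which was not applied to the sums. Family sums cover only entries with a matched sequence.

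miRNAs of the miR-302/miR-367 cluster, known from the epiblast after implantation, stayed a small part of all counts, at 0.290% and 0.208% in day 5 and 0.468% and 0.493% in ESC P2. Of 8 tested members 5 rose and none fell, with a median of 0.82, but with the spread from all 18 libraries none was called, and after the GC correction 1 of 7 was. miR-302d-3p was at 820 and 467 in day 5 and 1555 and 1687 in ESC P2, a change of 1.39 that was 0.64 and not called after the correction (limma adjusted p = 0.0996). In ESC P4 it was at 57 and 67 and in ESC P15 at 377 and 382, so that ESC P2 was the highest of the 3 ESC groups (limma adjusted p = 6.56e-05 against the mean of the others).

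Several other groups rose. All 3 tested members of the miR-34/miR-449 family, miRNAs known as p53 targets that restrain the cell cycle, were higher. miR-34c-5p was at 122 and 78 in day 5 and 518 and 421 in ESC P2, a log2 change of 2.25 (SE 0.26, limma adjusted p = 0.000722). miR-34a-5p went from 81 and 108 to 248 and 234, a change of 1.36 that was 1.31 after the GC correction. None of the 3 was called with the spread from all 18 libraries. Of the miR-200 family, which guards the epithelial state by repressing Zeb1 and Zeb2, 5 of 7 rose and none fell. Its 4 tested members in the chromosome 4 cluster all rose, miR-200a-3p by 1.66 and miR-200b-3p by 1.14. These were 1.03 and 0.22 after the GC correction, the latter not called (limma adjusted p = 0.304). Of the miR-130/miR-301 family 4 of 5 rose, among them miR-130b-3p, from 2295 and 2136 to 4340 and 4478, a change of 0.99 and of 0.66 after the correction. miR-16-5p, which limits G1 cyclins, went from 10685 and 11841 to 23614 and 28763, a change of 1.21 and of 0.88 after the correction, while miR-15b-5p, encoded beside 1 of its loci in an intron of Smc4, fell by 0.62, and by 1.25 after it. After the correction 4 of 7 miR-200 members and 1 of 4 of the miR-130/miR-301 family with a sequence were higher, and 1 of each was lower.

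The most abundant gain was that of miR-182-5p, at 56076 and 84301 in day 5 and 113745 and 121388 in ESC P2. It took 8.05% and 10.8% of all counts in day 5 and 14.6% and 14.9% in ESC P2. Its log2 change of 0.77 was close to the threshold (limma adjusted p = 0.0442) and was lost under 9 of the alternatives, among them the GC correction (limma adjusted p = 0.112). Its cluster partner miR-183-5p was not called, at 6532 and 16229 against 11977 and 17860, with a spread within day 5 wider than the difference.

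The largest fall in normalized counts was that of miR-92a-3p, encoded in Mir17hg on chromosome 14 and in a paralog on X. It held 173152 and 158005 in day 5, 24.9% and 20.2% of all counts, and 74501 and 71583 in ESC P2, 9.54% and 8.79%. The groups lay well apart, with a log2 change of -1.18 (SE 0.15, limma adjusted p = 0.000879) and of -0.77 after the GC correction. After quantile normalization the change was -0.78 and was not called (limma adjusted p = 0.167). In ESC P4 it was at 119083 and 118837 and in ESC P15 at 137705 and 151810, both above ESC P2.

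Its cluster mates from the same transcript did not fall with it. In the stretch of Mir17hg from miR-17-5p to the 5p arm of the miR-92a hairpin, 5 of 8 tested miRNAs rose and none fell. miR-20a-5p was at 468 and 354 in day 5 and 908 and 988 in ESC P2, a log2 change of 1.22, and miR-19b-3p was at 710 and 456 against 1381 and 1333, a change of 1.25. These were 0.47 and 0.51 after the GC correction and neither was called (limma adjusted p = 0.112 and 0.15). Over the miR-17-92 cluster and its paralogs, 12 of 24 tested rose and 2 fell, yet their share of all counts went from 26.6% and 21.4% to 12.8% and 12.0%, since miR-92a-3p dominates the sum.

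The whole seed family AUUGCAC, with miR-92b-3p, miR-25-3p, miR-363-3p, miR-367-3p and miR-32-5p beside miR-92a-3p, summed to 198483 and 194191 in day 5 and 84453 and 82102 in ESC P2, a log2 change of -1.24 (SE 0.07, limma adjusted p = 3.26e-05). Within this sum 2 members are listed at 0 in opposite groups. miR-25-3p was at 0 in both day 5 libraries and at 8508 and 8869 in ESC P2, whereas its 5p arm was at 752 and 686 in day 5 and at 188 and 180 in ESC P2. miR-92b-3p was at 24282 and 35011 in day 5 and at 0 in both ESC P2 libraries. Each is present in other libraries: miR-25-3p was at 1716 or more in the remaining 16 libraries of the series, and miR-92b-3p was at 0 in only 1 library besides those of ESC P2. miR-25-3p, miR-92b-3p and miR-92a-3p are alike in sequence, and how reads that fit more than 1 of them were assigned is not given in the sources used here.

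Listings of this kind were found for 9 entries, at 0 in both libraries of a group and at least 100 in both of the other. An exact 0 in such a table can be a failed estimate, so no fold is given for them. Besides miR-25-3p, day 5 was at 0 for miR-432 (2035 and 2012 in ESC P2), miR-294-5p (439 and 375), and miR-219b-3p and miR-219c-3p (112 and 101 each). ESC P2 was at 0 for miR-290a-5p (413 and 477 in day 5), miR-148b-3p (419 and 473) and miR-7091-5p (180 and 182), besides miR-92b-3p. miR-432 was at 0 in 15 of the 18 libraries of the series, with ESC P4 and ESC P15 among them. miR-219b-3p is the reverse complement of miR-219a-5p at the same place on chromosome 2, and miR-219a-5p was at 8 and 3 in day 5 and 9 and 10 in ESC P2. In all, 19 entries were at 0 in at least 1 of the 8 libraries of day 5 and ESCs while another of the 8 held at least 100. Of these 16 were tested and 12 called. List counts include such entries. miR-432 was among the rises of Dlk1-Dio3, and miR-25-3p among those of the miR-17-92 cluster and its paralogs. miR-219b-3p was among those of the neural markers given below.

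Among the 74 seed families tested, 27 (36.5%) were higher and 11 (14.9%) lower by limma, 51.4% in all. Of the abundant ones the family that fell furthest was CCCUGAG, that of miR-351-5p, miR-125a-5p and miR-125b-5p, the family of the worm miRNA lin-4. It summed to 10587 and 17467 in day 5 and to 1731 and 1926 in ESC P2, a log2 change of -2.90 (SE 0.37, limma adjusted p = 0.00128). The 3 members were each called lower before the GC correction, and 2 of them after it. They lie on chromosomes X, 17 and 9, and miR-125b-5p has a further locus. miR-351-5p (chrX:53053315-53053338) was at 7234 and 11223 in day 5 and 1125 and 1243 in ESC P2, a change of -2.93 and of -2.18 after the GC correction. miR-125a-5p (chr17:17830817-17830840, in an exon of Spaca6) was at 3337 and 6220 in day 5 and 601 and 677 in ESC P2, a change of -2.83 and of -2.88 after the correction. miR-125b-5p was low throughout, at 16 and 24 against 5 and 6, and fell by 1.67 (limma adjusted p = 0.0472). It passed the minimum through day 5 only, so it had to differ and its call adds little to that of the family. After the correction its change was -1.72 and was not called (limma adjusted p = 0.052). miR-125a-5p was at 7161 and 3145 in ESC P4 and 3467 and 2819 in ESC P15, so its low level was that of ESC P2 and not of ESCs at large (limma adjusted p = 0.00118 against their mean).

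Before the GC correction some neighbors of these miRNAs were not called. On X, in the cluster that miR-351 shares with miR-322 and miR-503, miR-322-5p was at 1063 and 1086 in day 5 and 1052 and 1096 in ESC P2, a log2 change of 0.00 (SE 0.11). After the correction miR-322-5p was lower by limma, with a change of -0.63 (adjusted p = 0.00636). Of the 9 tested entries of the cluster 3 fell, both arms of miR-351 and miR-322-3p, and 1 rose, while after the correction 6 were lower and none higher. miR-351-3p, at 40 and 109 in day 5 and 4 and 3 in ESC P2, passed the minimum through day 5 only and so had to differ. In the chromosome 17 cluster miR-99b-5p changed by -0.85 without a call (limma adjusted p = 0.254), while let-7e-5p fell by 1.46, and after the correction these were -0.02 and -2.09.

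Of the let-7/miR-98 family 5 of 10 tested fell and 1 rose, with a median log2 change of -0.53. Among the 5 were let-7b-5p (16 and 23 in day 5, 0 and 1 in ESC P2) and let-7d-3p (25 and 28, 1 and 2). Both passed the minimum through day 5 only, so they had to differ. let-7a-5p was at 272 and 266 in day 5 and 132 and 117 in ESC P2, a change of -1.11 (SE 0.13, limma adjusted p = 0.000722) and of -2.03 after the GC correction. let-7f-5p, the most abundant member, was at 838 and 884 against 785 and 639 and was not called, while let-7g-5p rose from 96 and 81 to 203 and 193. After the correction let-7f-5p was lower, with a change of -1.49 (limma adjusted p = 0.000629), and let-7g-5p was not called (0.24, limma adjusted p = 0.313). These miRNAs are rich in A and U, and after it 8 of the 10 were lower and none higher, at a median of -1.42. The family held 0.246% and 0.209% of all counts in day 5 and 0.188% and 0.156% in ESC P2.

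Other large falls were single miRNAs. miR-423-5p, in an intron of Nsrp1, was at 3084 and 2604 in day 5 and 564 and 472 in ESC P2, a log2 change of -2.46 (SE 0.17, limma adjusted p = 0.000111) and of -2.08 after the GC correction. Its 3p arm fell too, from 3979 and 3172 to 1063 and 917. miR-375-3p, known from pancreatic islets and other endoderm, was at 721 and 639 against 130 and 101, a change of -2.56. In ESC P4 it was at 121 and 131, like ESC P2, and in ESC P15 at 468 and 542. miR-6412 fell by 3.21, from 467 and 503 to 51 and 52, and by 3.55 after the correction. miR-3107-5p, with the same values as the erythroid miR-486-5p, fell by 2.85. Of the 12 largest falls, 11 differed from the mean of ESC P4 and ESC P15 as well. So did 10 of the 12 rises and 67.3% of all miRNAs tested. miR-6944-3p was the exception among the falls, being as low in ESC P4 (74 and 72) and ESC P15 (83 and 63) as in ESC P2 (63 and 75).

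Entries with numbers from 1900 upward, most of them named late, from sequencing, were mostly lower. Of 78 tested 49 were lower and 4 higher, with a median log2 change of -1.86. Of all 508 tested, 50 passed the minimum through day 5 only and so had to differ. How many of the 78 were among them was not counted, so the count and median rest on such entries in an unknown part. Their share of all counts was 5.53% and 5.42% in day 5 and 2.51% and 2.25% in ESC P2. The median GC content of the 64 with a sequence was 57.1%, and after the correction 28 of these were lower and 5 higher, where 41 and 2 were called before it. At up to 50% GC, 7 of 15 such entries were lower and 1 higher, beside 30 and 117 of the other 223 miRNAs. The grouping by number came from earlier results on these data.

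**Figure D4:**
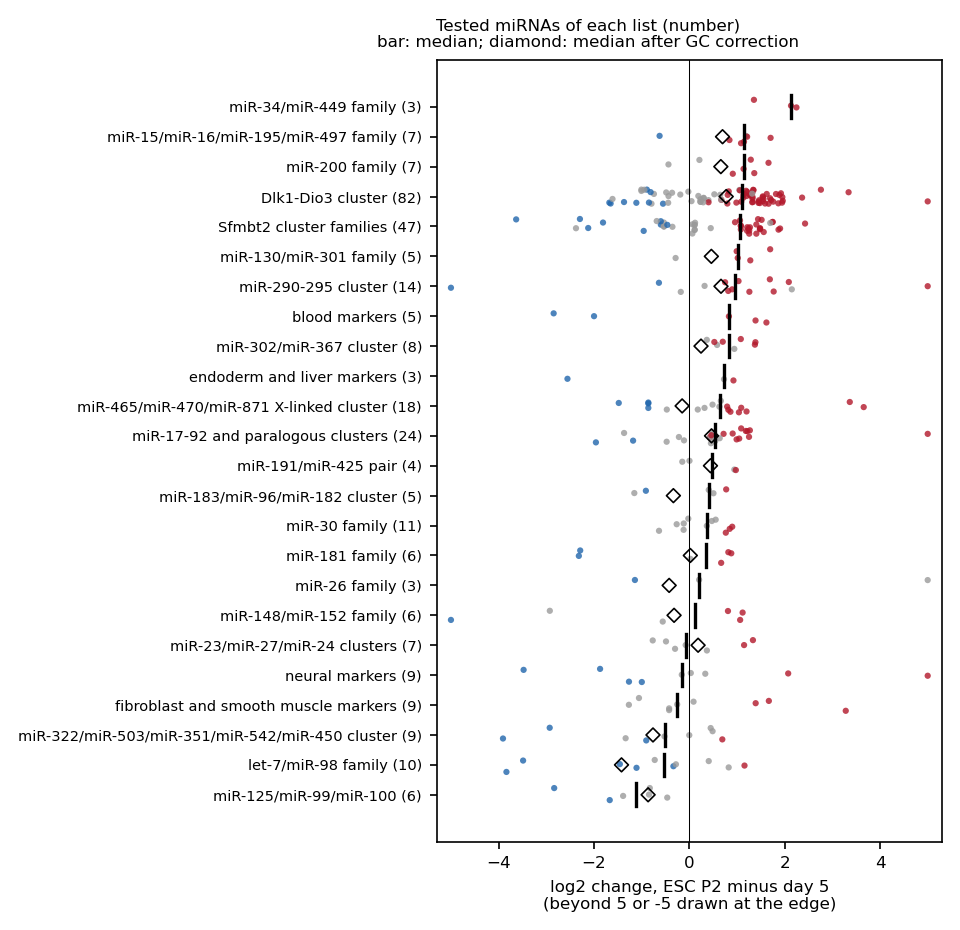
Log2 change from day 5 to ESC P2 (x) of each tested miRNA in the lists with at least 3 tested members, with the number tested in parentheses; red points rose and blue points fell at an adjusted p below 0.05 by limma, grey points were not called, black bars are medians, and open diamonds are medians after the GC correction where at least 80% of the tested members had a sequence. The Dlk1-Dio3 cluster (median 1.11) lies to the right, the miR-125/miR-99/miR-100 list (median -1.12) to the left, and the let-7 diamond (-1.42) lies left of its bar (-0.53).

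The Sfmbt2 families, miR-297, miR-466, miR-467 and miR-669, come from a large intronic cluster that is highly active in trophoblast and is also on in ESCs. Of 47 tested 24 rose and 8 fell, with a median log2 change of 1.06, and their share of all counts was 0.888% and 0.897% in day 5 and 1.16% and 1.19% in ESC P2. miR-669a-5p went from 632 and 714 to 1730 and 1834, a change of 1.41, while miR-467a-5p, at 888 and 1349 against 1569 and 1424, was not called. miR-669f-5p rose by 2.43, while miR-466m-3p and miR-466f-3p fell by 2.29 and 2.12. Many entries share identical values, and the members are near-identical in sequence, so single values are uncertain. The counts of rises and falls include such repeats, as for miR-669a-5p and miR-669p-5p among the rises. Only 2 of the 47 had a matched sequence, so a GC check of this list is void.

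The balance of the arms was tested for 96 hairpins with a mean of at least 20 for each arm. By limma on the log2 ratio of 5p to 3p, 40 (41.7%) differed, 26 (27.1%) with more 5p in ESC P2 and 14 (14.6%) with more 3p. An arm could reach this mean through 1 group alone, which favors a difference. miR-409-5p, at 11 and 19 in day 5 and 124 and 196 in ESC P2, is an example. How many of the 40 were of this kind was not counted. With the spread from all 18 libraries only 4 and 2 were called. The hairpin of miR-465b, X-linked and known from testis, gained 5p, from 0.690% and 0.549% of both arms to 11.1% and 11.9%. Its 5p arm was at 8 and 7 in day 5 and 89 and 84 in ESC P2. This arm passed the minimum through ESC P2 only, so it had to differ. miR-465a-5p and miR-465c-5p, of the same seed, rose by 1.04 and 0.79. After the GC correction neither of these 2 was called (0.020 and 0.17, limma adjusted p = 0.97 and 0.476). The 3p arms of miR-465a, miR-465b and miR-465c have identical values, so the 3 ratios share a denominator. Likewise miR-466h and miR-466m share 5p values, as do miR-466b and miR-466o, and miR-466b and miR-466c share 3p values. The 26 are therefore not all separate results.

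Besides miR-210, the shift toward 3p was large for miR-323, in which the 5p share went from 4.86% and 5.82% to 0.752% and 0.571%, and for miR-1247, from 59.6% and 63.8% to 19.0% and 24.6%. After the GC correction their log2 ratios still fell by 1.69 and 2.07. miR-291b shifted from 72.9% and 92.4% to 39.5% and 51.0%, with day 5 replicates far apart, and was not called after the correction (limma adjusted p = 0.401). The changes of miR-25 and miR-294 rest on the listings at 0 given above.

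**Figure D5:**
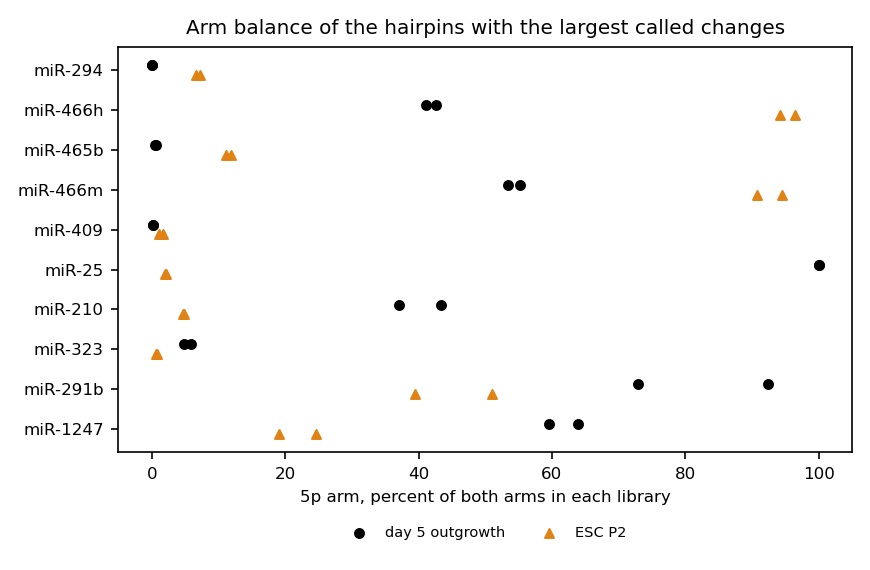
Share of the 5p arm in the sum of both arms, in percent (x), for the hairpins with the 5 largest called changes each way, in each day 5 library (black dots) and each ESC P2 library (orange triangles). For miR-210 the black dots lie at 37.1% and 43.3% and the triangles at 4.83% and 4.66%. The positions of miR-25 and miR-294 at 100% and 0% in day 5 come from an arm listed at 0. The 5p arms of miR-465b, miR-323 and miR-1247 reached the minimum through 1 group only.

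Markers of other cell types were read as a check of the labels. Defining miRNAs of liver (miR-122-5p), muscle (miR-206-3p) and myeloid cells (miR-223-3p) were at 0 in all 4 libraries, and erythroid miR-451a was at 0 in 3 and at 2 in the other. Blood markers summed to 2967 and 2822 in day 5 and 2052 and 2251 in ESC P2. Of 5 tested 3 rose and 2 fell, the largest loss being that of miR-150-5p, from 1856 and 1095 to 410 and 309. miR-142-5p, the most abundant of them in ESC P2, rose from 732 and 1040 to 1417 and 1701. Its log2 change was 0.83 (limma adjusted p = 0.0153). With the spread from all 18 libraries none of the 5 was higher and 2 were lower. Endoderm and liver markers summed to 1484 and 1668 in day 5 and to 1544 and 1620 in ESC P2, with 1 of 3 tested higher and 1 lower.

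The fibroblast and smooth muscle list summed to 20454 and 18006 in day 5 and to 22107 and 21561 in ESC P2, and most of this was miR-22-3p, which was not called. In that list 3 of 9 tested rose and none fell, at a median log2 change of -0.25. When each library was scaled to an equal total, 3 were higher and 2 lower. Only 7 of the 9 had a matched sequence, so a GC check of the list is void, and of these 7 single miRNAs 2 were higher and 2 lower after the correction. miR-10b-5p was at 1075 and 2118 against 668 and 787, not called before the GC correction and lower after it (-1.52, limma adjusted p = 0.0381). miR-143-3p went from 619 and 680 to 1783 and 1628, and miR-21a-5p from 945 and 653 to 2598 and 2403, a change of 1.67 and of 0.75 after the correction. Neural markers summed to 865 and 808 in day 5 and 723 and 743 in ESC P2, with 2 of 9 higher and 4 lower. Among the 2 was miR-219b-3p, listed at 0 in day 5 and at 112 and 101 in ESC P2. Also among the 9 was miR-219a-2-3p, at 103 and 74 against 6 and 8. It passed the minimum through day 5 only, so it had to differ. Both arms of the endothelial miR-126a rose, the 3p arm from 40 and 34 to 140 and 163, a change of 2.01 and of 1.67 after the correction. Striated muscle markers summed to between 53 and 79 in the 4 libraries, and miR-208b-3p was the 1 of 2 tested that rose, a call lost after the correction (limma adjusted p = 0.784). At 9 and 9 in day 5 and 21 and 28 in ESC P2, miR-208b-3p passed the minimum through ESC P2 only, so it had to differ. The part of other cell types in the changes above was not tested.

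Set against the mean of ESC P4 and ESC P15, ESC P2 differed for 342 of the 508 miRNAs (67.3%) by limma, 215 higher (42.3%) and 127 lower (25%). Of the 24 largest rises and falls 21 differed in that comparison, which shares the ESC P2 libraries with the main one. The other 3 were miR-582-3p and miR-293-5p among the rises and miR-6944-3p among the falls. A difference from this mean does not set ESC P2 apart from each of the other ESC groups. miR-329-5p, for example, averaged 246 in ESC P2, 248 in ESC P4 and 16 in ESC P15. miR-293-5p, at 3982 and 5113 in ESC P4 and 5110 and 6098 in ESC P15, had levels in the 3 ESC groups that overlapped, all above those of day 5.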

How the data were processed

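Small RNAs of 18 libraries were sequenced on an Illumina GAIIx from TruSeq Small RNA libraries size-selected for short inserts, per the labels' protocols. Each deposited value is a score, namely a normalized count that the authors rounded to a whole number. The submitters' processing notes name cutadapt, DESeq2 1.30.0 and mm10; for the aligner, the counting and the normalizing step, the tool is not given in the sources used here. Because the values are normalized and rounded, no count model was used.

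Libraries were grouped by the code in the description, which matches the column name. Values entered as log2(normalized count + 1). Group means of 8 libraries in 4 groups (day 5, ESC P2, ESC P4, ESC P15; 4 residual degrees of freedom) were fitted with limma 3.58.1 in R 4.3.3 with the trend and robust options, unpaired. A miRNA was tested with at least 10 in at least 2 of the 4 libraries compared. Adjusted p-values are Benjamini-Hochberg with a threshold of 0.05, and SE is that of the log2 change. Seed families are sums over entries that share bases 2 to 8, and arm balance is the log2 ratio of 5p to 3p where each arm has a mean of at least 20. The fits were checked on simulated data. Loci are from RefSeq and host genes from GENCODE vM21 on the same strand, both on GRCm38.

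Named miRNAs are those called with a mean of at least 100, groups that do not overlap and neither group at 0, taking the 12 largest rises and 12 largest falls and the 5 largest changes each way in normalized counts; those listed at 0 throughout a group and at least 100 in both libraries of the other; the 2 most abundant tested members of each list; and 5 seed families and 5 hairpins each way. Others were chosen after their values were seen. The libraries compared and the lists, written from general knowledge, were chosen with earlier results of these data known. No sample column was left out.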

Additional observations from a re-analysis of the deposited data

How the results depend on the processing

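The fit was repeated with other pseudocounts, filters, library sets, scalings and settings of limma, without each replicate in turn, and, chosen after seeing the data, without the miRNAs listed at 0 and with the GC correction. With the spread from all 18 libraries 75 miRNAs were higher and 71 lower, 17 and 7 seed families, and 4 and 2 hairpins, and 12 of the 24 largest changes differed from ESC P4 and ESC P15. After the GC correction 96 of the 408 miRNAs with a sequence were higher, and 14 of the hairpins with a sequence for both arms gained 5p. Several of the 26 that gained 5p before it, such as miR-532 and miR-669a, had no corrected value. The 14 and the 26 are therefore not counts over the same hairpins. With a minimum of 50 in place of 10, 17 hairpins gained 5p. Leaving out 1 replicate gave 126 to 176 miRNAs higher and 103 to 134 lower, 21 to 26 and 8 to 12 seed families, 17 to 25 and 9 to 17 hairpins, and 18 to 21 of the 24. The lowest hairpin counts came without ESC P2 replicate 2 for 5p (17) and without either ESC P2 replicate for 3p (9). Of 91 named calls (miRNAs, families and hairpins) 35 were lost with the spread from all 18 libraries, 11 by quantile scaling, 9 and 13 without day 5 replicate 1 and 2, and 20 and 19 without ESC P2 replicate 1 and 2, and 13 of 66 after the GC correction. Of the 12 largest falls, miR-6944-3p lost the call with the 18-library spread (limma adjusted p = 0.0698). The cause of these differences was not tested.

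After the GC correction the log2 change turned for miR-295-3p (-0.27) and miR-298-5p (0.23), both called before it. It also turned for miRNAs that were never called in the main comparison: under that correction for miR-183-5p (-0.12), miR-26a-5p (-0.42), miR-181a-5p (-0.16), miR-22-3p (-0.25) and miR-499-5p (-0.94). By total, median ratio and quantile scaling, miR-181a-5p gave -0.087, -0.070 and -0.070, miR-191-5p -0.11, -0.090 and -0.49, and miR-22-3p -0.022, -0.0054 and -0.0037, and by quantile scaling miR-26a-5p gave -0.0074. Leaving out 1 replicate, the change ranged from -0.15 to 1.16 for miR-183-5p, -0.030 to 0.029 for miR-322-5p, -0.33 to 0.17 for miR-23b-3p, -0.41 to 0.17 for miR-30d-5p, -0.22 to 0.27 for miR-181a-5p, -1.09 to 0.14 for miR-871-3p, -0.65 to 0.65 for miR-191-5p, -0.058 to 0.39 for miR-212-3p and -0.046 to 0.22 for miR-22-3p.

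Replicates share only a number: deviations of same-numbered day 5 and ESC P2 libraries correlated at r = 0.32 across 508 miRNAs, and the labels name no shared batch. With the replicate number as a block, 170 miRNAs were higher and 135 lower, and 6 of 91 named calls were lost. A value of 10 carries a counting error of up to 38.7%, lower values more, and 2 libraries per group limit every estimate.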
